A study of Mus musculus with 16 samples.

Results

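Of 60688 merged CTCF regions in the mouse genome, 3177 held a peak in the list from embryonic stem (ES) cells grown in serum and none in the lists from ES cells in 2i medium or from neural progenitor cells (NPCs). These serum-only regions were selected on the peak lists themselves. The 3 deposited lists were pooled, peaks that overlapped by at least 1 bp were joined into 1 region, and a region was kept when it contained a serum peak and no other. They made up 5.23% of all merged regions and 6.34% of the 50096 regions with a serum peak (exact binomial 95% interval 6.13 to 6.56, which covers counting error only). Each one contained exactly 1 serum peak. Another 8832 regions were found in the 2i list only and 1119 in the NPC list only, 20068 were in both ES lists and 26435 in all 3.

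CTCF is a zinc finger protein that binds a long DNA motif and halts the cohesin complex as it extrudes chromatin loops. Pairs of bound sites often lie at the feet of such loops and at the borders of contact domains. Strong sites tend to be occupied in most cell types, whereas weaker sites are more often seen in one cell type or culture condition and not in another.

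The ES cells were of the male V6.5 line (129SvJae x C57BL/6), untreated, expanded on inactivated mouse embryonic fibroblast feeders and then moved to gelatin so that feeders were removed. One culture was in medium with serum and the cytokine LIF. The other lacked serum and contained LIF plus CHIR99021, which inhibits GSK3, and PD0325901, which inhibits MEK. This mixture, called 2i, holds ES cells in a more uniform naive state. The NPCs were not derived from V6.5 cells: they came from whole brains of P1 129SvJae x C57BL/6 mice that carried Sox2-eGFP, and were grown as neurospheres, plated on laminin and fixed 1 day later. Cell origin and cell type therefore cannot be told apart between NPCs and ES cells. CTCF was mapped by chromatin immunoprecipitation and sequencing (ChIP-seq) with 1 library per condition, so differences between lists have no replicate check. Peak names in the lists carry the mark "Rep2", and whether other ChIP replicates exist is not stated. Contacts around 7 loci were measured by 5C, which counts ligation products between chosen restriction fragments, with 2 libraries per condition and 11784821 to 26533530 counts per library. The labels do not tell if a condition's libraries were made from independent cultures. The p-values therefore reflect only the spread between these libraries, which may be technical.

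Serum-only regions were weak. Their median fold enrichment over background was 9.19 (interquartile range 8.17 to 10.7), against 13.1 for serum peaks shared with 2i alone and 24.5 for those in all 3 lists. Over all regions with a serum peak the median was 17.8. Regions limited to another list were nearly as weak in that list, with medians of 9.73 for 2i-only and 10.3 for NPC-only regions. Serum peaks shared with NPCs alone had a median of 10.2. The median of −log10 p was 17.8 in serum-only regions, 30.4 in regions of both ES lists and 77.6 in regions of all 3 lists. Only 9 serum-only regions had a fold enrichment above the median of all serum regions. These values are the peak caller's own, and they helped decide which regions entered the lists, so they describe the set and test nothing.

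The narrowness of the peaks went with this. Serum-only regions spanned a median of 195 bp, and the range ran from 163 bp, the narrowest serum peak of any class, to 595 bp. Regions of all 3 lists had a median serum peak width of 366 bp. The median peak width in the own list was 189 bp for 2i-only and 152 bp for NPC-only regions. For serum peaks shared with NPCs alone it was 206 bp. Many regions shared their values exactly: the 3177 regions had 539 distinct combinations of fold and −log10 p, and 184 of them had the single combination of a fold of 9.19 and a −log10 p of 16.5.

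When all serum regions were ranked by −log10 p and cut into deciles, 32.04% of the weakest decile was serum-only (exact 95% interval 30.7 to 33.3). The share was 18.6% in the next decile, 9.22% in the third and 2.85% in the fourth. Together the weakest 3 deciles held 3000 of the 3177 serum-only regions, or 94.4%. The strongest 5 deciles held 3, and the top 3 deciles held none, which allows a share of up to 0.0736% in each of them (upper exact bound). The regions of the 2i list fell off in the same order but from a higher start, from 60.0% in the weakest decile to 5.77% in the fifth. For the NPC list the start was lower and the tail longer, with 13.3% in the weakest decile and 2.59% in the fifth. Serum-only regions in the fifth decile amounted to 0.619%.

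**Figure D1:**
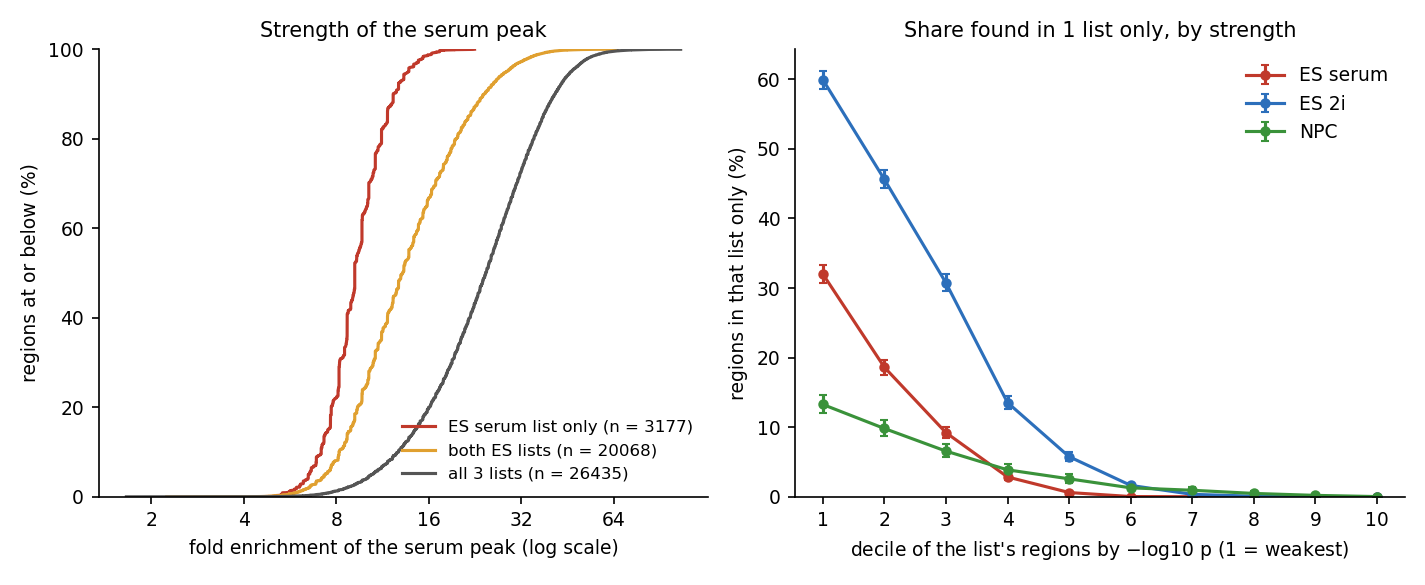
Left, cumulative distributions (percent of regions) of the fold enrichment of the serum peak on a log axis for serum-only regions, regions of both ES lists and regions of all 3 lists. Right, percent of each list's regions that were found in that list only, by decile of strength, with exact binomial 95% intervals as bars. The serum curve starts at 32.04% in the weakest decile and is at 0.619% by the fifth.

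By fold, the strongest serum-only region lay at chr9:107503128-107503428 (mm9 coordinates, as throughout), with a fold of 22.5 and a −log10 p of 57.4. It was 0.958 kb from a region of all 3 lists. The next were both on chromosome 1, at chr1:36672863-36673155 with a fold of 22.3 and the highest −log10 p of any member, 64.6, and at chr1:82378538-82378805 with a fold of 21.4, and these were 18.6 kb and 51.2 kb from the nearest CTCF region of any class. These 3 were the serum-only regions in the strongest 5 deciles.

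The other 7 of the top 10 had folds of 17.4 to 19.4. Regions at chr14:51506976-51507195 and chr6:31845922-31846161 had the same fold of 19.4. The next, chr4:132335901-132336174, had a fold of 18.4 and was 2.91 kb from a region of all 3 lists. Folds of 18.0, 17.9, 17.9 and 17.4 belonged to chr12:58627919-58628145, chr11:28992455-28992751, chr9:108882538-108882822 and chr1:6320774-6321028. In all 10 the nearest CTCF region was shared by both ES lists or by all 3, and its distance ranged from 0.958 to 51.8 kb. None of the 10 had another serum-only region closer than 22.8 kb.

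At the weak end the rule rested on small differences. The lowest value in the serum list was a −log10 p of 8.22, which was also the floor of the other lists, and it was reached by serum-only regions such as chr12:81261686-81261848, chr15:85402957-85403119 and chr19:47693038-47693228, each with a fold of 5.27. Some members only just missed a peak of another list: the gap was 2 bp at chr4:9698037-9698199, 4 bp at chr9:16304913-16305258 and 8 bp at chr9:99481594-99481792. In all, 335 members, or 10.5%, lay within 1 kb of a 2i or NPC peak, and 45 lay within 200 bp. Just outside the rule were chr2:168111478-168111837, whose serum peak overlapped a 2i peak by 17 bp, chr2:84637344-84637846 with 24 bp and chr14:99648687-99649181 with 31 bp. Such narrow overlaps were rare, since only 6 of 46919 shared serum regions overlapped by 50 bp or less. Members within 1 kb of another list's peak had a median fold of 8.92, and the 2842 farther away had 9.19.

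The number of serum-only regions stayed near that of the rule when only the geometry was changed, at 2842 to 3252. With a −log10 q of at least 20 required in every list the count was 2620, but only 669 of these overlapped a member of the original rule. With each list cut to its 28860 strongest peaks, the length of the NPC list, 1780 serum-only regions were left, and 13 of them overlapped an original member. In that cut the weakest peak kept had a −log10 p of 40.3 in serum, 44.8 in 2i and 8.22 in NPCs. The serum-only share of the serum regions was 6.17% there, the 2i-only share of 2i regions dropped from 15.8% to 8.90%, and the NPC-only share of NPC regions went from 3.91% to 18.1%. The order of the 3 shares thus depended on the lengths of the lists, and which regions were members depended on the threshold.

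Serum-only regions were far apart from each other and close to other CTCF regions. The median distance to the nearest other serum-only region was 159 kb (interquartile range 54.3 to 431), and to the nearest CTCF region of any class 7.10 kb. For 2i-only regions, which are more numerous, the same-class median was 58.6 kb, and for the fewer NPC-only regions it was 554 kb. The distance to any CTCF region was similar across classes, at 8.03 kb for 2i-only, 10.9 kb for NPC-only and 6.44 kb for regions of all 3 lists. Same-class distance falls as a class grows, so these medians are given side by side and not compared.

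Within 10 kb of another serum-only region were 196 members, or 6.17% (exact 95% interval 5.36 to 7.06). The same share was 14.3% in 2i-only regions and 3.57% in NPC-only regions. This share, too, depends on the size of a class, so the values are not compared. Walking along each chromosome, the next CTCF region after a serum-only one was serum-only in 6.04% of cases (interval 5.24 to 6.93), beside the 5.23% that serum-only regions make up of all regions. The lower bound of that interval was at this share. Nearest neighbours also had the mix of classes of the genome: 42.1% belonged to all 3 lists, against 43.6% of all regions, 34.1% to both ES lists, against 33.1%, and 14.6% to the 2i list only, against 14.6%.

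**Figure D2:**
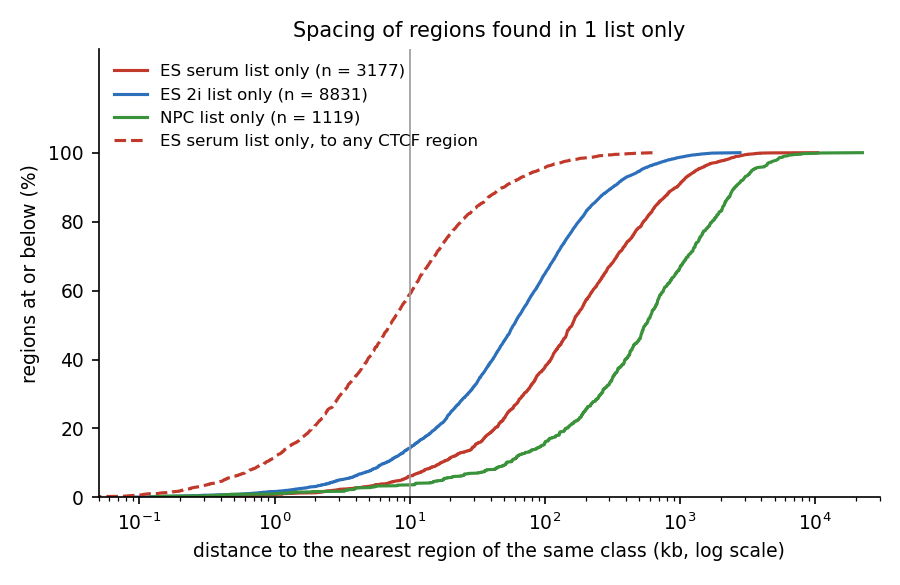
Cumulative percent of regions by distance to the nearest region of the same class (kb, log axis) for serum-only, 2i-only and NPC-only regions, with the distance from a serum-only region to any CTCF region dashed. The grey line marks 10 kb, which 6.17% of serum-only regions reach for their own class.

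Joining serum-only regions with gaps of at most 10 kb gave 83 pairs and 10 triplets, and no larger cluster, while 2981 regions stood alone. The 2i-only and the NPC-only regions reached clusters of 4, and regions of both ES lists clusters of 12. Cluster sizes also depend on the number of regions in a class and are not compared. The tightest triplet occupied 1.64 kb at chr5:113690377-113692015 and contained no other CTCF region. Its members had folds of 9.19, 13.0 and 12.3, and the first gap was 0.139 kb, the smallest between any pair of serum-only regions. The next triplet, at chr1:169632093-169639085, spanned 6.99 kb and had folds of 12.3, 8.19 and 8.68. Its nearest 2i peak was 31.8 kb away. The third, at chr4:141117553-141124682, spanned 7.13 kb with folds of 6.88, 8.998 and 9.48, and it began 1.24 kb from a region of all 3 lists. Members in clusters were as strong as those alone, with a median fold of 9.19 in both.

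Over megabases the members were spread thinly. Of 2539 bins of 1 Mb that held any CTCF region, 1038 had no serum-only region and 117 had 5 or more. The highest count, 12, was found in adjoining bins on chromosome 4, so that the stretch from 132 to 134 Mb contained 24 serum-only regions among 143 serum regions. That was 16.8% (exact 95% interval 11.1 to 23.9), beside 6.38% over the whole chromosome, and the stretch was picked because its count was high. Folds there ranged from 4.93 to 18.4 with a median of 10.2, and 6 of the 24 were within 10 kb of another member. On chromosome 4 as a whole, 31 members, or 14.8%, had another within 10 kb, and outside this stretch the share was 13.5%.

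Across chromosomes the serum-only share ran from 4.51% to 8.59%. Chromosome X was highest, with 107 serum-only regions among 1246 serum regions (exact 95% interval 7.09 to 10.3), and chromosome 1 followed with 261 of 3417, or 7.64% (6.77 to 8.58). The lowest shares were 4.51% on chromosome 8, with 126 of 2791 (3.77 to 5.35), and 4.89% on chromosome 10, with 121 of 2475 (4.07 to 5.81). Of the 20 chromosomes with at least 100 serum regions, 5 had an interval that missed the genome-wide share. These intervals treat regions as independent, and with 1 library per condition no spread between replicates can be set beside them.

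Chromosome X differed from the autosomes in the strength of its serum peaks. The median fold of its serum regions was 14.3 against 17.9 on the autosomes, and 45.1% of them belonged to the weakest 3 deciles of the list, against 29.7%. Within these weak regions the serum-only share was 18.3% on chromosome X (interval 15.2 to 21.8) and 20.0% on the autosomes, so the high rank of chromosome X was not seen among the weak regions alone. With a −log10 q of at least 20 required in every list, however, its share was again the highest of all chromosomes, at 13.3%. Within the weakest 3 deciles, chromosome 1 had the highest share, 24.7%, and chromosome 8 the lowest, 15.5%, among the 20 chromosomes with at least 100 serum regions. The part of the X chromosome's single copy in these male cells in its peak strength was not tested. Per megabase the order was another one: among these 20 chromosomes X had the fewest serum-only regions, 0.661 per Mb, and chromosome 11 the most, 2.18. None of the 107 members on chromosome X had another within 10 kb.

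**Figure D3:**
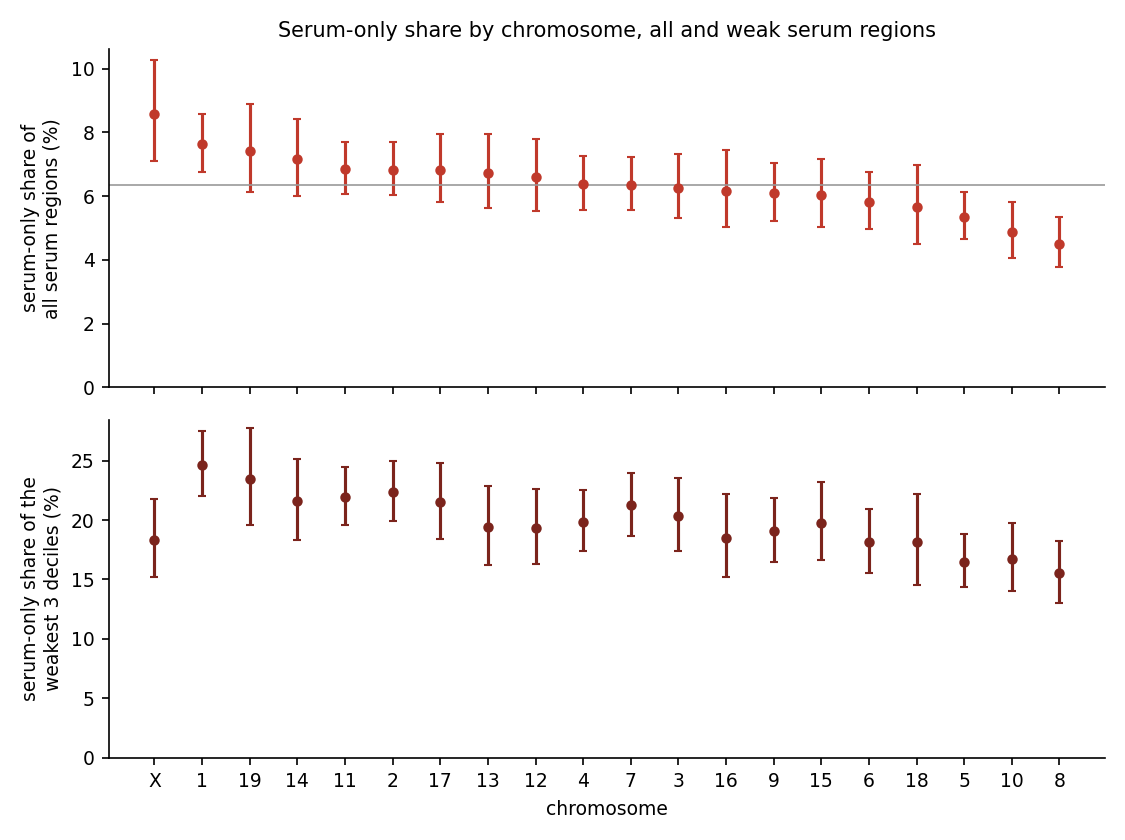
Serum-only share (percent) of all serum regions (upper panel) and of the weakest 3 deciles of serum regions (lower panel) per chromosome, ordered by the upper panel, with exact binomial 95% intervals as bars and the genome-wide share as a grey line. Chromosome X leads the upper panel at 8.59% and sits at 18.3% in the lower one.

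The 5C loci surround genes that mark the cell states: Sox2, Nanog and Oct4, transcription factors of pluripotency, with Sox2 also active in neural progenitors; Klf4, another ES cell factor; Nestin, an intermediate filament gene of neural progenitors; Olig1 and Olig2, neural and oligodendrocyte factors; and a gene desert. Among 364 serum regions in these loci, 29 were serum-only, or 7.97% (exact 95% interval 5.40 to 11.2). Oct4 contained 13, Nanog-V2 and Nestin 5 each, Olig1-Olig2 and Sox2 3 each, and Klf4 and the gene desert none. Their folds ran from 6.49 to 14.3 with a median of 9.63. The strongest was in Nestin at chr3:87543553-87543795, and the next at chr17:35724327-35724547 in Oct4 with a fold of 13.8 and at chr16:91474277-91474508 in Olig1-Olig2, also with 13.8. One Oct4 member, chr17:35562631-35562879, fell where no contact was tested, so 28 members entered what follows.

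Contacts were not used to choose the regions. Counts were summed over pairs of 16 kb windows within a locus, corrected for the fall of contacts with distance in each library and locus, and tested with edgeR across all 15601 pairs that passed a filter on low counts. A pair was called at a Benjamini-Hochberg adjusted p below 0.05. The members lay in 27 windows, of which 21 also held a CTCF region of another class, and pairs that share a window are not independent. Both comparisons use the same serum libraries.

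Over all loci, window pairs with a serum-only region changed about as often as others. Against 2i, 195 of 2078 such pairs, or 9.38%, were called higher in serum, beside 9.22% of all pairs tested, and 256, or 12.3%, were called lower, beside 11.7%. Against NPCs, 310 pairs, or 14.9%, were higher in serum and 288, or 13.9%, lower, beside 14.2% and 14.9% of all pairs. In either direction, 21.7% of member pairs were called against 2i, where the background was 21.0%, and 28.8% against NPCs, where it was 29.1%. The median log2 fold change of member pairs was -0.050 against 2i and 0.0013 against NPCs, while over all pairs it was -0.023 and -0.0030. These shares are near the background. With plain TMM, which scales each library by 1 factor and not by locus, 6.83% of member pairs were higher than 2i and 13.8% lower, beside 10.8% and 12.8% of all pairs. The member median was then -0.15, beside -0.025 over all pairs. In windows of 8 kb, 9.11% of member pairs were higher than 2i and 12.3% lower, beside 6.97% and 8.58% of all pairs. Counts of calls depended on single libraries, for members and background alike. Against 2i, without serum replicate 2, 43 member pairs (2.06%) were higher and 75 (3.59%) lower, beside 1.99% and 3.35% of all pairs. Without serum replicate 1 the member counts were 68 and 103, and without 2i replicate 1 they were 69 and 97. Against NPCs they were 148 higher and 141 lower without serum replicate 2, and 172 and 163 without serum replicate 1.

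The 330 pairs with a window that held a serum-only region and no other CTCF region had 27 higher and 43 lower against 2i, or 8.18% and 13.0%. Against NPCs 58 of them, or 17.6%, were higher and 56, or 16.97%, lower. In either direction 34.5% were called against NPCs and 21.2% against 2i, beside 29.1% and 21.0% of all pairs tested. These 330 pairs come from 6 windows at Nanog-V2, Olig1-Olig2 and Sox2. Over all pairs of these loci, 33.0%, 35.7% and 35.8% were called against NPCs.

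Sox2 and Nestin departed from this average in opposite directions, and Olig1-Olig2 departed from it against 2i. At Sox2, 45 of 123 member pairs were lower in serum than in 2i and 1 was higher, or 36.6% and 0.813%, while over all 1947 pairs of the locus 12.2% were lower and 9.04% higher. Against NPCs 58 Sox2 member pairs, or 47.2%, were lower and 14, or 11.4%, higher, beside 18.4% and 17.4% over the locus. At Nestin, 45 of 299 member pairs, or 15.1%, were higher in serum than in 2i and 14, or 4.68%, lower, a direction that turned under plain TMM, beside 9.28% and 11.1% over the locus. Against NPCs 69, or 23.1%, were higher and 17, or 5.69%, lower, beside 14.1% and 14.2% over the locus. Rises no longer outnumbered falls under plain TMM (39 higher and 36 lower) or with DESeq2 size factors (37 and 36). Under plain TMM these were 13.04% and 12.04%, beside 5.97% and 24.6% over the locus, so the excess over the locus was kept. Relative to the median of the locus, Nestin member pairs had a median of 0.26 against NPCs with the correction per locus. That value was 0.29 under plain TMM, 0.29 with DESeq2 size factors, and 0.29 without serum replicate 2 and with the correction per locus. Nanog-V2 and Oct4 were closer to their own background. Against 2i, 17 of 209 Nanog-V2 member pairs (8.13%) were higher and 30 (14.4%) lower, beside 9.51% and 12.1% over the locus. Of 1240 Oct4 member pairs, 110 (8.87%) were higher and 161 (13.0%) lower, beside 9.47% and 11.9%. Of 207 at Olig1-Olig2, 22 (10.6%) were higher and 6 (2.90%) lower, beside 9.52% and 10.8%. Their median log2 fold change against 2i was 0.18, beside -0.0090 over the locus. Under plain TMM it was 0.29, beside 0.096. Against NPCs 12.6% of them were higher and 12.6% lower, beside 16.3% and 19.3% over the locus. Member pairs of a locus come from few windows: 2 at Sox2, 5 at Nestin and Nanog-V2, 12 at Oct4 and 3 at Olig1-Olig2.

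The size of these counts depended on single libraries and on scaling. Without a serum or a 2i library, calls against 2i also became fewer over all pairs of each locus. Without a serum library, so did calls against NPCs over all pairs of Sox2 and of Nestin. Sox2 had 15 pairs lower and 0 higher against 2i without serum replicate 2, and 22 lower without serum replicate 1 or without 2i replicate 1. Against NPCs it had 38 lower and 9 higher without serum replicate 2, and 42 and 8 without serum replicate 1. Nestin had 5 higher and 6 lower against 2i without serum replicate 2, 18 and 6 without serum replicate 1, 14 and 4 without 2i replicate 1 and 25 and 8 without 2i replicate 2. At the other 3 loci the counts against 2i without serum replicate 2 were 2 higher and 9 lower at Nanog-V2, 35 and 43 at Oct4 and 1 and 2 at Olig1-Olig2. With 1 scaling factor per library (plain TMM) in place of a correction per locus, 22 Sox2 pairs were lower and 2 higher, and at Nestin the direction turned, with 10 higher and 44 lower. That scaling shifted the whole loci, to a median log2 fold change of 0.37 at Sox2 and -0.44 at Nestin over all their pairs. Relative to the median of the locus, Sox2 member pairs had a median of -0.43 in both scalings, and Nestin member pairs had 0.21 and 0.20. Without serum replicate 2, and with the correction per locus, these medians were -0.44 at Sox2 and 0.21 at Nestin.

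**Figure D4:**
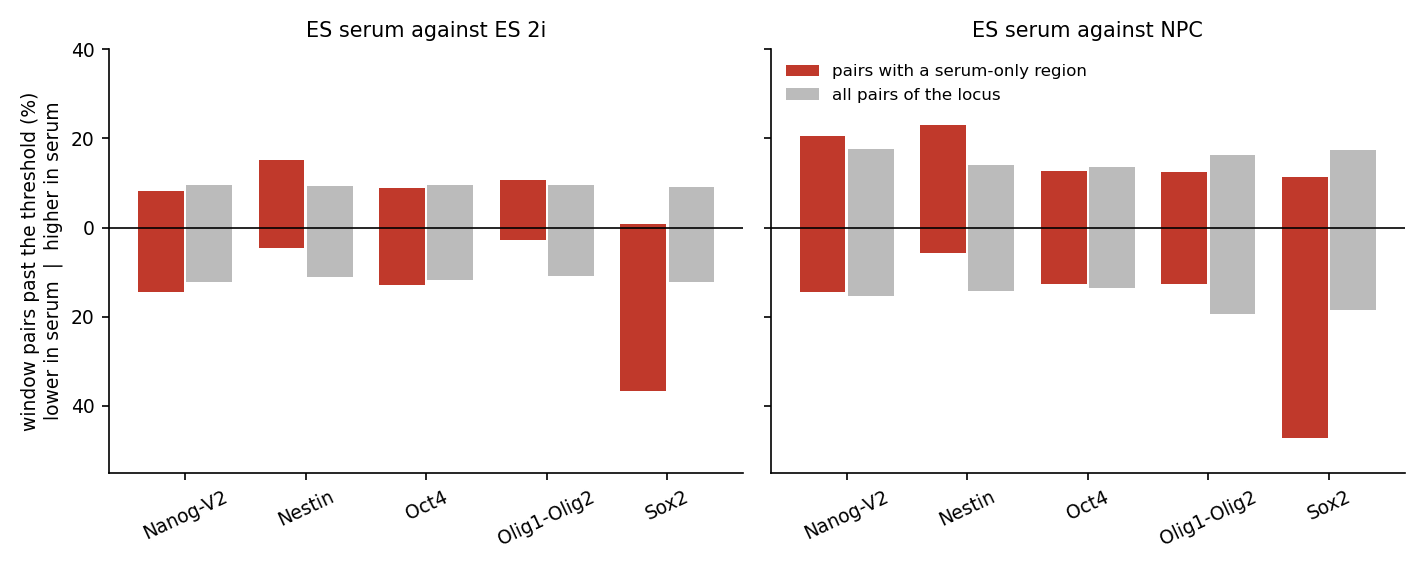
Percent of window pairs called higher (above the line) or lower (below the line) in ES serum than in ES 2i (left) or NPCs (right), for pairs with a serum-only region in red and all pairs of the locus in grey. The Sox2 bars reach 36.6% lower against 2i and 47.2% lower against NPCs.

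The Sox2 locus had serum-only regions at chr3:34565163-34565409, chr3:34640622-34640846 and chr3:34650578-34650750, with folds of 11.2, 8.93 and 6.89. The last pair lay 9.73 kb apart in a single window, chr3:34636880-34652879, in which no other CTCF region was found. This window took 3.45% and 3.82% of the locus's counts in the 2i libraries, 2.70% and 2.90% in the serum libraries and 1.95% and 1.69% in the NPC libraries. The 3 groups did not overlap: 2i was highest and NPC lowest. Of its 62 window pairs, 24 were lower in serum than in 2i and 1 was higher, and against NPCs 18 were lower and 10 higher. It had the highest share of lower pairs against 2i among the windows with a serum-only region, and ranked 22 among all 417 windows with at least 20 tested pairs.

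In the 2i libraries, its highest normalised count was with the window 80 kb before it, chr3:34556880-34572879. That window contains the first of the Sox2 serum-only regions. Normalised counts of this pair were 3241 and 2949 in the 2i libraries, 1515 and 1127 in the serum libraries and 917 and 736 in the NPC libraries. Serum was lower than 2i by edgeR, with a log2 fold change of -1.23 ± 0.18 (SE, 2 libraries against 2, adjusted p = 0.00043), and higher than NPCs by 0.68 ± 0.18 (adjusted p = 0.012). The libraries of the 3 conditions were fully separated, and the call against 2i held under each other scaling, test and filter, under the replicate block and with each library left out in turn. The next window outward, 96 kb before it, had 2927 and 2517 normalised counts in 2i, 1207 and 967 in serum and 770 and 423 in NPCs.

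One pair went the other way. With the window 48 kb after it, chr3:34684880-34700879, normalised counts were 1789 and 2299 in serum, 719 and 1079 in 2i and 1178 and 576 in NPCs. In both serum libraries this pair had the highest normalised count of the window with 2 serum-only regions. The log2 fold change was 1.18 ± 0.27 against 2i (edgeR adjusted p = 0.0067). This call was lost with DESeq2's Wald test (adjusted p = 0.063), without 2i replicate 1 (edgeR, 0.10) and without serum replicate 2 (0.11).

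In the window of the first Sox2 member, 22 of 62 pairs were lower in serum than in 2i and 40 of 62 lower than in NPCs. Higher in serum were 0 and 5 pairs. This window took 3.49% and 3.76% of the locus's counts in serum, 4.51% and 4.81% in 2i and 3.69% and 3.62% in NPCs. By this share serum was below 2i, while the serum and NPC libraries overlapped. The share of pairs lower than in NPCs, 64.5%, ranked 4 among the 417 windows. In this window a region of both ES lists was also found, so the measurements cannot be assigned to the serum-only region.

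**Figure D5:**
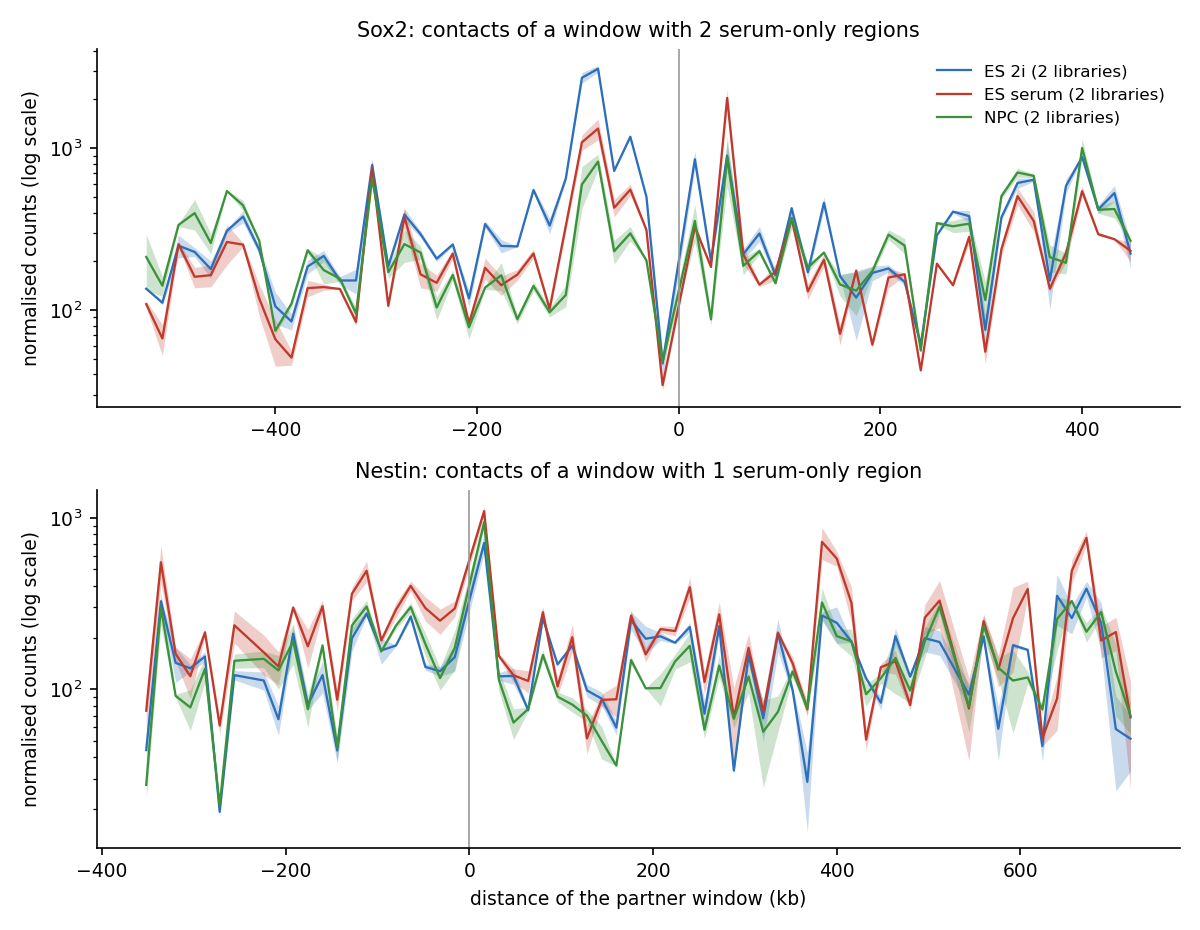
Normalised 5C counts (log axis) between a window with serum-only regions and every other tested window of its locus, by the distance of that window in kb, for Sox2 (upper panel) and Nestin (lower panel); lines are means of 2 libraries and bands run from the lower to the higher library. At Sox2 the 2i line stands above the serum and NPC lines 80 to 96 kb before the window, where it reaches 3241 in 1 library.

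At Nestin the window with the largest share of rises against 2i was chr3:87637088-87653087, with the serum-only region chr3:87647999-87648161 (fold 9.19) and 2 other CTCF regions. Its share of the locus's counts was 2.30% and 2.55% in serum, above 1.62% and 1.59% in 2i and 1.57% and 1.72% in NPCs. Of its 66 pairs, 19 were higher in serum than in 2i and 2 were lower, in the fit with a correction per locus. The rises lay mainly to one side, with 13 of the 21 partner windows before it called higher, against 6 of 44 after it. The pair with the window 384 kb after it had 570 and 876 normalised counts in serum, 257 and 281 in 2i and 390 and 251 in NPCs, a log2 fold change of 1.43 ± 0.28 against 2i (edgeR adjusted p = 0.0023). Without serum replicate 2 the adjusted p was 0.076.

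Nanog-V2 gave the largest share of rises against NPCs among the members. The window chr6:122269360-122285359 contains the serum-only region chr6:122280916-122281247 (fold 9.83) and no other CTCF region. It took 6.87% and 7.43% of the locus's counts in serum, 5.18% and 4.79% in 2i and 3.40% and 3.29% in NPCs. Against NPCs 25 of its 44 pairs were higher and 0 lower, a share of 56.8% that ranked 2 among the 417 windows, and against 2i 9 were higher and 0 lower. Another Nanog-V2 window with a serum-only region alone, chr6:122909360-122925359, showed the reverse: 14 of 44 pairs were lower against 2i and 10 against NPCs, with 0 higher in either. Its member, chr6:122914564-122914834, had a fold of 10.5. These windows, alike in holding 1 serum-only region alone, thus moved in opposite directions.

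The largest changes of single pairs were at Oct4. The largest fall against 2i was between the window of chr17:35734120-35734336 (fold 11.7) and a window 592 kb after it, whose counts were 89 and 58 in 2i, 7 and 9 in serum and 24 and 40 in NPCs. The log2 fold change was -3.98 ± 0.60 against 2i (edgeR adjusted p = 0.00045) and -3.29 ± 0.61 against NPCs (0.00096), on few counts. The window just before it, with chr17:35724327-35724547, had 41 and 33 counts with the same partner in 2i, 8 and 1 in serum and 12 and 16 in NPCs. That difference, -3.79 ± 0.82 against 2i (edgeR adjusted p = 0.0048), was lost without 2i replicate 1 (0.065) and without serum replicate 2 (0.063).

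The largest rises at Oct4 were also against distant partners. For the window of chr17:34931605-34931833 (fold 9.63) and a partner 272 kb before it, counts were 643 and 788 in serum, 64 and 120 in 2i and 69 and 93 in NPCs, a log2 fold change of 2.11 ± 0.29 against 2i (edgeR adjusted p = 0.00019). The window of chr17:35673123-35673366 (fold 9.73) and a partner 1104 kb away had 137 and 210 counts in serum, 19 and 23 in 2i and 123 and 49 in NPCs, a log2 fold change of 2.12 ± 0.46 against 2i (edgeR adjusted p = 0.0048; 0.075 without serum replicate 2). Normalised, this contact was 654 and 290 in NPCs and 376 and 569 in serum, so these groups overlapped. Against NPCs, the window of chr17:35361577-35361861 (fold 7.70) and a partner 928 kb away had 6390 and 8510 counts in serum, 608 and 449 in NPCs and 1085 and 1152 in 2i. Its log2 fold change was 2.78 ± 0.20 (edgeR adjusted p = 3.9e-07). All 3 windows also held 2 to 5 CTCF regions of other classes.

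Another 2 Oct4 pairs were called against NPCs on very few counts. The pair between the windows of chr17:34931605-34931833 and chr17:36012555-36012794, with a serum-only region at both ends, had 6 and 47 counts in serum and 1 and 1 in NPCs, and its log2 fold change of 3.57 ± 1.26 (edgeR adjusted p = 0.044) held only without the filter on low counts (0.042) and without serum replicate 1 (0.017). It was lost in the other 9 settings that tested this pair, with adjusted p from 0.0502 with plain TMM to 0.56 without serum replicate 2. The pair of the window of chr17:34808444-34808643 (fold 8.21) with a partner 1536 kb away had 7 and 2 counts in serum and 34 and 12 in NPCs. Its log2 fold change was -3.31 ± 0.86 (edgeR adjusted p = 0.0092; 0.092 without NPC replicate 1 and 0.0905 without serum replicate 2).

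The authors' deposited table sorts pixels of the contact map, each a pair of small bins, into looping classes by the conditions in which their interaction score was high. Its classes marked "es" were read here as serum, because the 2i classes are marked as such, and the table itself does not say so. Of 347 pixels of the class found in serum only, 20 had a serum-only CTCF region in one of their bins, or 5.76% (exact 95% interval 3.56 to 8.76). The share was 3.96% in the 1820 background pixels (3.11 to 4.96) and 5.71% over all 3942 looping pixels. Adjoining pixels share bins, so these intervals are too narrow. The 20 pixels came from Nestin and Oct4, 10 each, and none from the 18 serum-only pixels of Nanog-V2, the 79 of Olig1-Olig2 or the 7 of Sox2.

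The highest share was in the class shared by 2i and serum, with 47 of 374 pixels, or 12.6% (9.38 to 16.4). Of these, 34 came from Sox2, and without this locus the share was 5.06%. The Sox2 members chr3:34640622-34640846 and chr3:34650578-34650750 touched 14 and 15 such pixels. In the class of NPCs only the share was 3.09%, in that of 2i only 3.10% and in the constitutive class 5.34%. It was 8.65% in the class of serum and NPCs and 6.98% in that of 2i and NPCs. Without Sox2 these last shares were 8.91% and 7.20%. Altogether 25 of the 29 members were in a bin of at least 1 looping pixel. The same share was not counted for other CTCF regions of the loci, so it cannot be read as a trait of the members. Among the members, chr17:36254787-36255119 in Oct4 touched the most looping pixels, 31, of which 14 were constitutive.

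The median interaction score of the 225 looping pixels with a serum-only region was 45.7 and 44.1 in the serum libraries, 48.6 and 54.4 in the 2i libraries and 42.6 and 41.9 in the NPC libraries. For the other 3717 looping pixels it was 35.6 and 35.3 in serum, 43.4 and 45.7 in 2i and 43.7 and 43.0 in NPCs. Pixels with a member had higher scores than the others in the 4 ES libraries and lower scores in both NPC libraries. The difference was not tested, and the scores were not split by locus or class. Of the 225 pixels, 47 were of the class shared by 2i and serum, 34 of them at Sox2. The classes were themselves set by these scores.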

How the data were processed

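The regions, gene loci and lists were chosen with earlier results of these data known. Peaks were called with MACS2 and 5C reads aligned with Bowtie on mm9, per the submitters' processing notes, which give no versions. Per the file headers and names, each deposited peak list stems from 1 downsampled library and gives the authors' fold enrichment (a ratio), −log10 p and −log10 q per peak. The deposited 5C files hold raw read counts per primer pair, and the labels say that the raw reads equal those of earlier samples. The deposited classified table gives the authors' interaction score per pixel, a normalised value with no stated unit. Inputs and siRNA libraries were not used here, nor were 55 columns of per-sample values in other tables. Without an mm9 annotation in use, regions are given by coordinates and no gene is assigned to them.

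Peaks were merged and described with Python 3.11.15 (pandas 2.3.3, scipy 1.17.1). 5C counts were summed over 16 kb windows and tested with edgeR 4.0.16 (quasi-likelihood, filterByExpr, TMM, and an offset from a loess trend of span 0.5 per library and locus), all 6 libraries in 1 fit, in a script tested on simulated data. The common biological coefficient of variation was 0.199. Counts used were 79.3% to 90.0% of each library's total. No 2 libraries of a group were duplicates, since their counts differed by 20.7 to 29.7 times the variance of sampling noise. Normalised counts are divided by each library's offset.

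Named regions were the 10 with the highest fold, leaving out chromosome 18, the 3 tightest of the largest clusters, all members in the 5C loci, 3 at each edge of the rule, the 2 chromosomes with the highest and the 2 with the lowest share, and per comparison the 2 largest called rises and falls at least 3 windows apart with separated libraries. The chromosome 4 stretch, the windows shown at Sox2, Nestin and Nanog-V2 and their pairs were picked after their values were seen. Alternatives were other merging rules and thresholds, other scalings, DESeq2 1.42.0, other windows, a replicate block and leaving out each library. Counts by locus under these were added after seeing the data.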

Additional observations from a re-analysis of the deposited data

How the results depend on the processing

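The members changed with the peak threshold, as reported above, and the median log2 fold change against NPCs, close to 0, took either sign. With a −log10 q of at least 20, the median fold was 12.8, the median member distance 214 kb, the next-region share 7.25%, the share on chromosome X 13.3% and the share of serum-only looping pixels 2.31%; member pairs were 106 higher than 2i and 189 higher than NPCs, with medians of -0.075 and -0.061. With lists of equal length, the values were 1780 regions, a fold of 19.1, 296 kb, 3.31% within 10 kb, a next-region share of 5.23% and 2.88% of pixels, with 95 pairs higher and 136 lower than 2i, 133 lower than NPCs and medians of -0.0030 and 0.12. Both settings change the members and with them the pairs counted, so their counts of pairs cannot be set beside those of the original rule. Merging within 500 bp gave 6.11% of serum regions, 168 kb, 5.32% within 10 kb and medians of -0.064 and -0.021. Without members within 1 kb of another peak, these were 5.67%, 182 kb, 3.76% on chromosome 8 and medians of -0.091 and -0.042. By summits the median against 2i was -0.075. Gaps of 5 and 50 kb put 3.18% and 22.9% of members in clusters, and the median −log10 q, another quantity than the fold, was 15.4.

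Windows without another CTCF region had the 27 and 43 pairs against 2i and 58 and 56 against NPCs given above, with a median of -0.071 there. The median against 2i was -0.15 with plain TMM (all pairs -0.025), -0.15 with DESeq2 size factors (all pairs -0.018; 7.17% higher, beside 11.1% of all pairs), -0.044 without a filter and -0.042 with 2 groups alone. DESeq2 size factors gave -0.017 against NPCs. Windows of 8 kb gave medians of -0.096 and -0.019. Windows of 32 kb gave 152 of 987 member pairs (15.4%) lower than 2i and 199 (20.2%) higher than NPCs, beside 14.4% and 20.2% of all pairs, and a median of -0.039 against 2i. The cause of these shifts was not tested; fewer windows or regions enter several of them. Leaving out 1 library gave 43 to 249 pairs higher and 75 to 285 lower than 2i (medians -0.077 to -0.021), and 148 to 305 higher and 141 to 273 lower than NPCs (medians -0.021 to 0.029). The lowest counts were without serum replicate 2.

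Replicate numbers do not pair the libraries (correlations of 0.033, 0.072 and 0.015). With a replicate block 243 pairs (11.7%) were higher and 298 (14.3%) lower than 2i, beside 11.9% and 13.8% of all pairs, and 347 (16.7%) higher and 312 (15.0%) lower than NPCs, beside 16.4% and 16.7%, each within 1.5 times the count without it. Of the named pairs it ended 1 call, that of the Oct4 pair with a member at both ends (adjusted p = 0.057).

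With 1 ChIP library per condition, membership has no error estimate, and the read depth behind a peak is not in the lists. Several of the named 5C pairs have fewer than 100 counts in every library.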
